A study of Mus musculus with 2 samples.

Results

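The ErbB receptors and the ligands of the epidermal growth factor (EGF) family were examined in newborn mouse lung. The 10 genes are the receptors Egfr, Erbb2, Erbb3 and Erbb4 and the ligands Nrg1, Areg, Hbegf, Ereg, Tgfa and Btc. They were chosen by name, with earlier results of these data known. All 10 were found among the 43346 mouse genes of the deposited tables. The data are total RNA-seq libraries of whole lung from 2 pups of strain B6NCrl at postnatal day 0, which is birth, and each holds both lungs of 1 pup. The pups are pup 1 (replicate 1) and pup 3 (replicate 2) of pregnancy 1. The labels name no treatment, transgene or other allele, and the pups' sex was not collected. The labels give a single donor identifier for both libraries, so each SD below rests on the pup numbers being separate animals. RNA over 200 nt was taken, with 10.0 ng as input. There is 1 group and no contrast between conditions, so levels are given for each pup with the mean ± SD (n = 2).

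ErbB receptors are membrane tyrosine kinases that signal as pairs. EGF-family ligands are made as membrane-bound precursors, are released by cell-surface proteases, and bind Egfr, Erbb3 or Erbb4. Erbb2 binds no known ligand and serves as the partner that the others prefer, while Erbb3 has little kinase activity of its own and relies on its partner. In lung the pathway is known for its part in branching, epithelial growth and repair after injury.

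Expected counts, which are estimated read counts per gene, summed to 42189536 over mouse genes in pup 1 and 37026165 in pup 3. Levels are in TPM, transcript abundance per length scaled to one total in each library, in which genes can be set side by side, and 1 TPM in both pups was taken as the floor of detection. By that floor 60.3% of 21474 protein-coding genes were detected. Markers of lung cells were present: all 5 markers of alveolar type 2 cells, all 5 of type 1 cells, all 3 each of secretory, ciliated, fibroblast, endothelial, smooth muscle and macrophage cells passed the floor. Of 4 basal-cell markers 2 were detected, and all 4 cardiac markers were. The 7 milk-protein genes summed to 1.16 TPM in pup 1 and 127 TPM in pup 3. Because the tissue is a mixture, fewer cells of a type and less RNA per cell cannot be told apart.

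The part that makes a ligand a member of the family is the EGF-like module, a short fold held by 6 cysteines that contacts the receptor. It is shown for 5 ligands as spliced coding sequence read from GENCODE M21 transcripts on GRCm38 (mm10), 5′ to 3′, with the cysteine codons in capitals. The search asked for 6 cysteine codons separated by 7, 4 to 5, 10 to 13, 1 and 8 other codons, and each transcript held 1 match that crossed 2 exons. The stretches lie at chr5:91143614-91144364 (+) for Areg, chr5:91088496-91089111 (+) for Ereg, chr5:91362421-91366197 (-) for Btc, chr6:86263200-86269960 (+) for Tgfa and chr8:31837698-31849398 (-) for Nrg1, with the intron left out.
Areg-201: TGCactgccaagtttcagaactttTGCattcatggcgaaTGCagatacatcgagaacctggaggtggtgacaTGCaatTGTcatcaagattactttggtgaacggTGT
Btc-201: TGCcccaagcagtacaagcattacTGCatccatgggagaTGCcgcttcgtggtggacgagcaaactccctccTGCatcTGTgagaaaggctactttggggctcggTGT
Tgfa-201: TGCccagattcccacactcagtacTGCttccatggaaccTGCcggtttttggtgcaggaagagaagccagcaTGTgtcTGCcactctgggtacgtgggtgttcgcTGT
Ereg-201: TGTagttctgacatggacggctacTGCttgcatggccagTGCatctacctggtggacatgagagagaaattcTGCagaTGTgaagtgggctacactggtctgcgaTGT
Nrg1-201: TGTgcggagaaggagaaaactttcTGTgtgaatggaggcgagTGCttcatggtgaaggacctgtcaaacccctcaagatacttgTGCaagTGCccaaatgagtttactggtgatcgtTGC
The modules of Areg, Btc, Tgfa and Ereg were each 36 codons long with the same spacing. That of Nrg1 was 40 codons long, with 5 codons in place of 4 between cysteines 2 and 3 and 13 in place of 10 between cysteines 3 and 4. Nrg1 is the ligand here that binds Erbb3 and Erbb4, and the other 4 bind Egfr.

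Among the receptors, Erbb2 and Erbb3 were the most abundant and nearly equal, Egfr was lower, and Erbb4 was close to 0. Erbb2 (ENSMUSG00000062312.5, chr11:98412470-98437716, + strand) had 18.7 TPM in pup 1 and 20.9 TPM in pup 3, a mean of 19.8 ± 1.53 (SD, n = 2), from 2896 and 2809 expected counts. Erbb3 (ENSMUSG00000018166.8, chr10:128567523-128589652, - strand) had 18.8 and 20.0 TPM (19.4 ± 0.842, SD, n = 2), from 3590 and 3248 counts. The Erbb2 and Erbb3 values overlapped, and the ratio of Erbb2 to Erbb3 was 0.995 in pup 1 and 1.04 in pup 3. Both stood above 73.8% and 73.5%, respectively, of protein-coding genes by mean TPM.

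Egfr, the receptor for EGF itself, is at chr11:16752203-16918158 (+ strand, ENSMUSG00000020122.12). It had 12.6 TPM in pup 1 and 8.07 TPM in pup 3 (10.3 ± 3.20, SD, n = 2), from 1606 and 1143 counts. Pup 1 was the higher, and the SD was the largest of the 10 genes in TPM. Egfr made up 25.1% of the summed receptor TPM in pup 1 and 16.5% in pup 3, against 37.3% and 42.6% for Erbb2. Per kb of its longest transcript, on the same scale, Egfr was 6.60 and 5.52.

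Erbb4, the receptor with its own kinase activity that neuregulins bind, had 6 counts in pup 1 and 9 in pup 3, with exact Poisson 95% intervals of 2.20 to 13.1 and 4.12 to 17.1 that cover counting error only. Its level was 0.02 TPM in pup 1 and 0.04 TPM in pup 3 (0.030 ± 0.0141, SD, n = 2), below the floor in both. The deposited posterior mean TPM put it at 0.30 and 0.37, also below the floor. The gene (ENSMUSG00000062209.11, chr1:68032186-69108059, - strand) is the longest of the 4 in the annotation. Counted per kb of the longest listed transcript, Erbb2 was 1159 times Erbb4 in pup 1 and 749.6 times in pup 3.

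**Figure D1:**
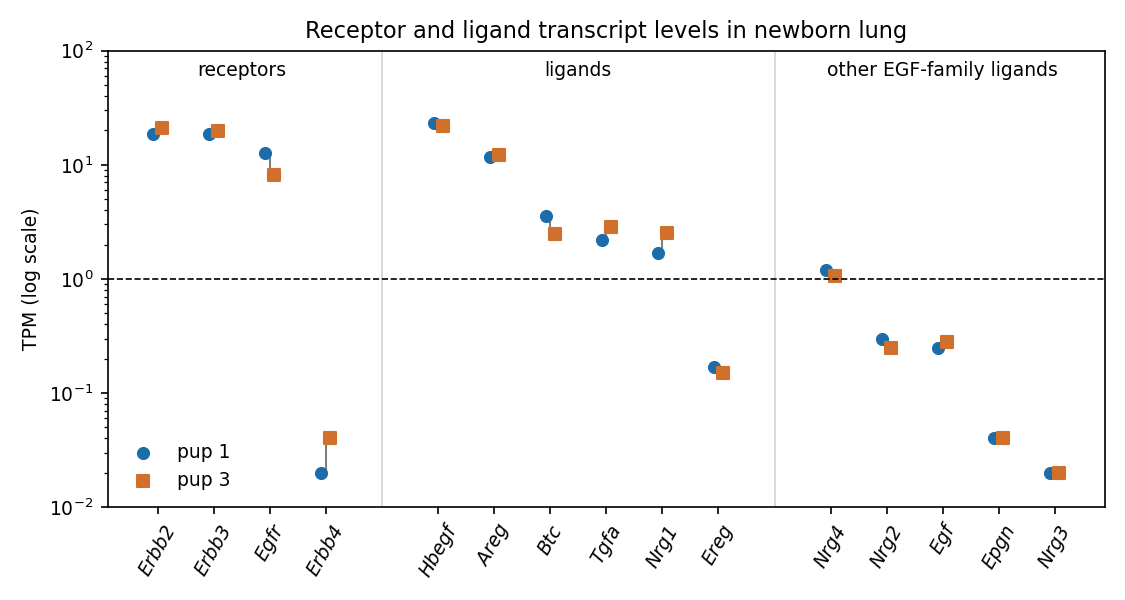
TPM on a log axis for the 4 receptors, the 6 ligands and 5 further EGF-family ligands, with pup 1 as circles and pup 3 as squares joined by a line and the floor of 1 TPM dashed. Erbb2, Erbb3, Egfr, Hbegf and Areg lie near or above 10 TPM, while Erbb4 and Ereg lie below the floor in both pups.

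Hbegf and Areg were the leading ligands, Btc, Tgfa and Nrg1 were detected at a few TPM, and Ereg was below the floor. Hbegf, heparin-binding EGF-like growth factor, which binds Egfr and Erbb4, had 23.1 TPM in pup 1 and 22.0 TPM in pup 3 (22.5 ± 0.757, SD, n = 2), from 1692 and 1373 counts. It had the highest level of the 10 genes in both pups. Areg, amphiregulin, a ligand of Egfr, had 11.6 and 12.1 TPM (11.9 ± 0.311, SD, n = 2), from 413 and 365 counts. Hbegf was 1.98 times Areg in pup 1 and 1.82 times in pup 3. Hbegf held 54.5% of the summed TPM of the 6 ligands in pup 1 and 52.2% in pup 3, and Areg held 27.5% and 28.7%. The genes are ENSMUSG00000024486.5 for Hbegf and ENSMUSG00000029378.4 for Areg.

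Btc, betacellulin, which binds Egfr and Erbb4, had 3.55 TPM in pup 1 and 2.49 TPM in pup 3 (3.02 ± 0.750, SD, n = 2; 318 and 190 counts; ENSMUSG00000082361.3). Tgfa, transforming growth factor alpha, a ligand of Egfr, had 2.19 and 2.84 TPM (2.52 ± 0.460, SD, n = 2; 231 and 239 counts; ENSMUSG00000029999.10, chr6:86195223-86275719, + strand). Nrg1, neuregulin 1, had 1.69 and 2.54 TPM (2.12 ± 0.601, SD, n = 2; 109 and 140 counts; ENSMUSG00000062991.6, chr8:31814551-32884029, - strand). The ranges of Btc and Tgfa overlapped, as did those of Tgfa and Nrg1, so their order is not separated by the spread. Btc was 1.62 times Tgfa in pup 1 and 0.877 times in pup 3.

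Ereg, epiregulin, which binds Egfr and Erbb4, had 22 counts in pup 1 and 17 in pup 3, with exact Poisson 95% intervals of 13.8 to 33.3 and 9.90 to 27.2. Its level was 0.17 TPM and 0.15 TPM (0.160 ± 0.0141, SD, n = 2; ENSMUSG00000029377.4), below the floor in both pups. Areg was 68.5 times Ereg in pup 1 and 80.5 times in pup 3.

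In order of mean TPM the 10 genes ran Hbegf, Erbb2, Erbb3, Areg, Egfr, Btc, Tgfa, Nrg1, Ereg and Erbb4. The ranges over the pups were separate for 5 of the 9 neighbouring pairs. They overlapped for Erbb2 and Erbb3, Areg and Egfr, Btc and Tgfa, and Tgfa and Nrg1. With 8 of 10 genes detected, 3 of 4 receptors and 5 of 6 ligands, the share stood beside 60.3% of all protein-coding genes. At a floor of 5 TPM the count was 5 of 10.

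Summed TPM of the receptors was 50.1 in pup 1 and 49.0 in pup 3, and that of the ligands was 42.3 and 42.1. The log2 ratio of receptors to ligands within a library was 0.24 and 0.22 (0.23 ± 0.0184, SD, n = 2). Receptor TPM exceeded ligand TPM in both pups. As a difference of mean log2(TPM + 1) the value was 0.75. Grouped by the receptors they are known to bind, Areg and Tgfa, which bind Egfr alone, summed to 13.8 and 14.9 TPM. Hbegf, Btc and Ereg, which bind Egfr and Erbb4, summed to 26.8 and 24.6 TPM, the largest group in both pups. The 4 neuregulins summed to 3.21 and 3.87 TPM, of which Nrg1 was the largest part. By posterior mean TPM Nrg4 was above Nrg1 in pup 1 (1.95 and 1.67) and below it in pup 3 (2.01 and 2.51).

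Of the 5 EGF-family ligands outside the 10 genes, 1 reached the floor. Nrg4, a ligand of Erbb4, had 1.20 TPM in pup 1 and 1.06 TPM in pup 3. Nrg2, which binds Erbb3 and Erbb4, had 0.30 and 0.25 TPM, and Egf, the founding member of the family, had 0.25 and 0.28 TPM. Epgn, epigen, a ligand of Egfr, had 2 counts in each pup, and Nrg3, a ligand of Erbb4, had 1 count in each. The list's median of mean TPM was 0.265, against 2.77 for the 6 ligands and 4.05 for all protein-coding genes.

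4 ligand genes stand side by side on chromosome 5. From left to right these are Epgn (chr5:91027464-91035215, + strand), Ereg (chr5:91074622-91093646, + strand), Areg (chr5:91139599-91148432, + strand) and Btc (chr5:91357261-91402994, - strand). The span of 376 kb held no other protein-coding gene in the annotation, with gaps of 39.4, 46.0 and 208.8 kb between neighbours. Levels along it were 0.04, 0.15 to 0.17, 11.6 to 12.1 and 2.49 to 3.55 TPM, so the 2 detected genes are the pair farthest from Epgn. Ereg and Areg, which lie 46.0 kb apart, had ranges that did not come near each other.

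**Figure D2:**
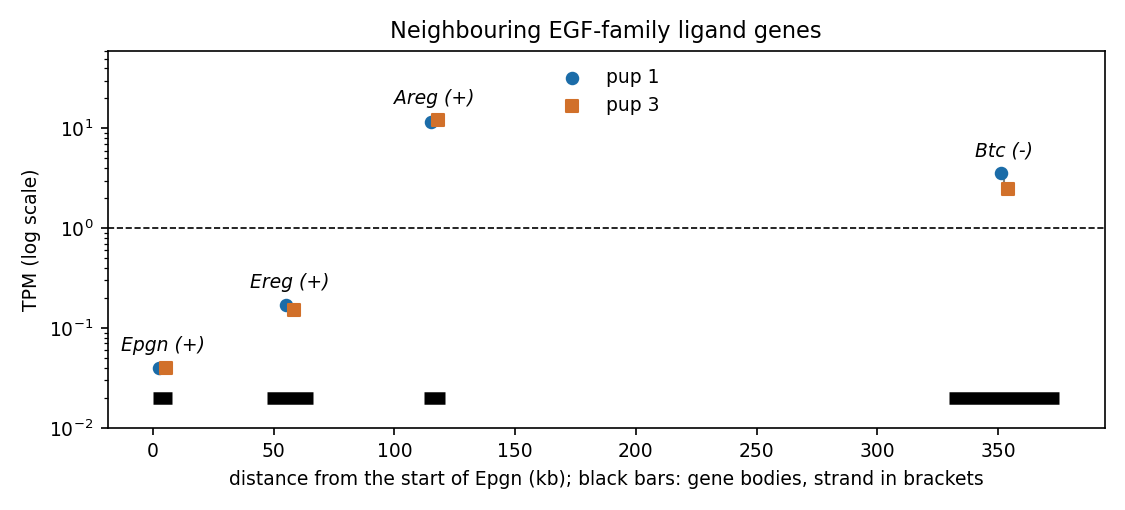
TPM on a log axis of the 4 neighbouring ligand genes against distance in kb from the start of Epgn, with gene bodies as black bars, pup 1 as circles, pup 3 as squares and the floor of 1 TPM dashed. Areg and Btc lie above the floor in both pups and Epgn and Ereg below it.

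The leading transcript of Egfr depended on the scale. The tables list 5 Egfr transcripts, and 3 of them carried most of its abundance. Egfr-201 (10208 nt) codes for the whole receptor of 1210 codons. Egfr-202 (2943 nt) codes for 655 codons: it shares the first 1926 coding bases and then runs from its exon 16 into the intron that follows, so that it ends before the membrane-spanning and kinase parts. Egfr-205 (446 nt) is a transcript with no coding sequence in the annotation. It has 2 exons. Of its bases 341 lie in exon 1 of Egfr-201 and the rest outside the exons of Egfr-201.

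The point where Egfr-202 leaves Egfr-201 is shown as spliced coding sequence from GENCODE M21 on GRCm38, 5′ to 3′. Lower case marks the last 60 shared bases and capitals the bases that follow, at chr11:16883600-16889973 (+) for Egfr-201 and chr11:16883600-16887225 (+) for Egfr-202, introns left out. The Egfr-202 line runs to its last codon before the stop.
Egfr-201: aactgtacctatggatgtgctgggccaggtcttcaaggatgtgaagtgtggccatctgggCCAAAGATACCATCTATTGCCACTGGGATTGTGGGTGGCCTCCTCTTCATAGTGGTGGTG
Egfr-202: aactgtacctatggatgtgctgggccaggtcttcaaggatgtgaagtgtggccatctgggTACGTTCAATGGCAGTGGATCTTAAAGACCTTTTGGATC

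By expected counts Egfr-201 led in both pups, with 1184 of the 1606 counts in pup 1 (73.7%) and 815 of 1143 in pup 3 (71.3%). Egfr-202 had 366 and 318 counts (22.8% and 27.8%), and Egfr-205 had 51.3 and 10.1 counts (3.19% and 0.885%). By isoform percent, the deposited share of the gene's TPM, the order was different because TPM divides by length. Egfr-205 had 36.4% in pup 1 and 13.2% in pup 3, Egfr-202 had 31.7% and 50.4%, and Egfr-201 had 28.8% and 36.4%. The leading transcript by isoform percent was Egfr-205 in pup 1 and Egfr-202 in pup 3.

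In TPM, Egfr-202 was nearly equal in the pups, at 3.99 and 4.07, and Egfr-201 was 3.63 and 2.94. Egfr-202 was 1.10 times Egfr-201 in pup 1 and 1.38 times in pup 3. Egfr-205 was 4.58 TPM in pup 1, with deposited credibility bounds of 2.70 and 6.57, and 1.06 TPM in pup 3, with an upper bound of 2.72. The bounds of the 2 pups met at their edges. Egfr as a gene was 4.52 TPM higher in pup 1, and 3.52 TPM of that was Egfr-205. The summed TPM of Egfr-201 and Egfr-202 was 7.62 in pup 1 and 7.01 in pup 3, a ratio of 1.09, where the ratio of the gene's TPM was 1.56.

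**Figure D3:**
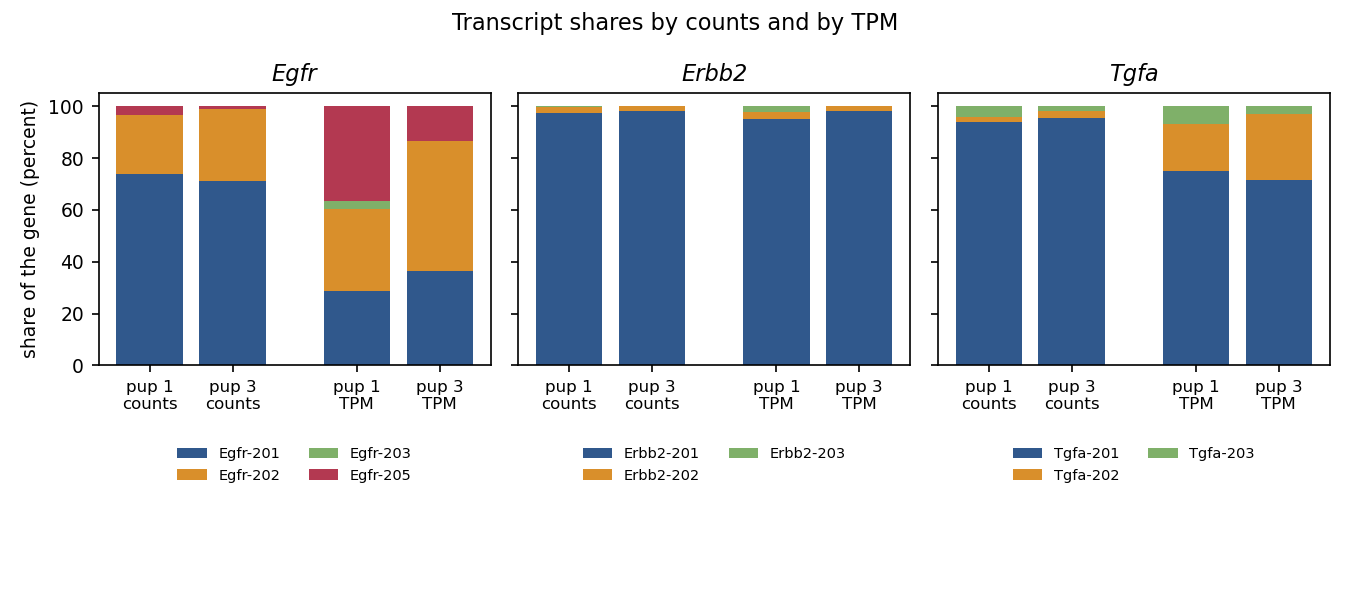
Stacked bars of the percent of a gene's expected counts and of its TPM held by each transcript with counts, for Egfr, Erbb2 and Tgfa in each pup. Egfr-201 holds over 70% of the Egfr counts in both pups and under 40% of the Egfr TPM, while Erbb2-201 leads on both scales.

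Erbb2-201, the full-length receptor, held 95.1% and 98.1% of the TPM of Erbb2. Tgfa-201 held 75.2% and 71.7% of the TPM of Tgfa, and Tgfa-202, a model of 410 nt, held 18.1% and 25.6% from 3.99 and 6.21 counts. Erbb4-201 held 85.0% and 68.3% of the TPM of Erbb4 and Erbb4-205 the remaining 15.1% and 31.7%, on fewer than 10 counts in each pup. By posterior mean isoform percent Erbb4-204, which had 0 counts, led with 70.9% and 68.2%, and Erbb4-201 had 3.25% and 4.16%. Erbb3, Nrg1, Areg, Hbegf, Ereg and Btc had 1 transcript each in the tables, so their shares are 100% by construction. Nrg1 is the extreme case. The annotation M21 lists 18 transcripts of it, and the 1 in the tables is 2103 nt long, which equals the coding length of Nrg1-201 with its stop codon. That model has no untranslated bases, and what this did to the level of Nrg1 was not tested.

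Pup 1 and pup 3 were compared as 1 library against 1 library, with no replicate check and no p-value. Folds are expected counts scaled by the TMM method, with an exact conditional binomial 95% interval for counting error. A gene was called when the libraries together held 50 counts or more of it, it differed at least 2-fold, and the interval left out 1. None of the 8 genes with enough counts was called, and 1.4% of the 15790 genes tested were. With a 1.5-fold rule 1 of 8 was called, Btc, and 5.06% of genes tested were. Erbb4 and Ereg had too few counts.

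Btc was 1.51-fold higher in pup 1 (95% interval 1.26 to 1.82), at the edge of that lower rule, and its call was lost with scaling by total counts or by TPM. Egfr was 1.27-fold higher in pup 1 (1.18 to 1.37) by counts, and Hbegf 1.11-fold (1.03 to 1.20). Nrg1 in pup 1 was 0.703 times its level in pup 3 (0.542 to 0.909), and Erbb2 was 0.930 times (0.883 to 0.980). The intervals of those 5 left out 1. With spike-in scaling Erbb2 was 1.03 times its level in pup 3 (0.975 to 1.08), the interval of Nrg1 held 1 (0.599 to 1.00), and that of Erbb3 no longer did (1.05 to 1.16). That scaling rests on only 317 spike-in counts in pup 1 and 316 in pup 3. Its own counting error is not in these intervals. With TMM scaling the intervals of Erbb3 (0.998, 0.951 to 1.05), Areg (1.02, 0.885 to 1.18) and Tgfa (0.872, 0.725 to 1.05) held 1. Pup 1 had the higher value for 4 of the 8 and pup 3 for the other 4, a split that moved with the scaling, to 6 and 2 by spike-ins and to 3 and 5 by total counts. Their median log2 ratio was 0.01, beside 0.01 over all genes tested. Between the 5th and 95th percentiles genes tested ran from -0.47 to 0.43 on that scale. Btc (0.59) and Nrg1 (-0.51) lay outside it.

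**Figure D4:**
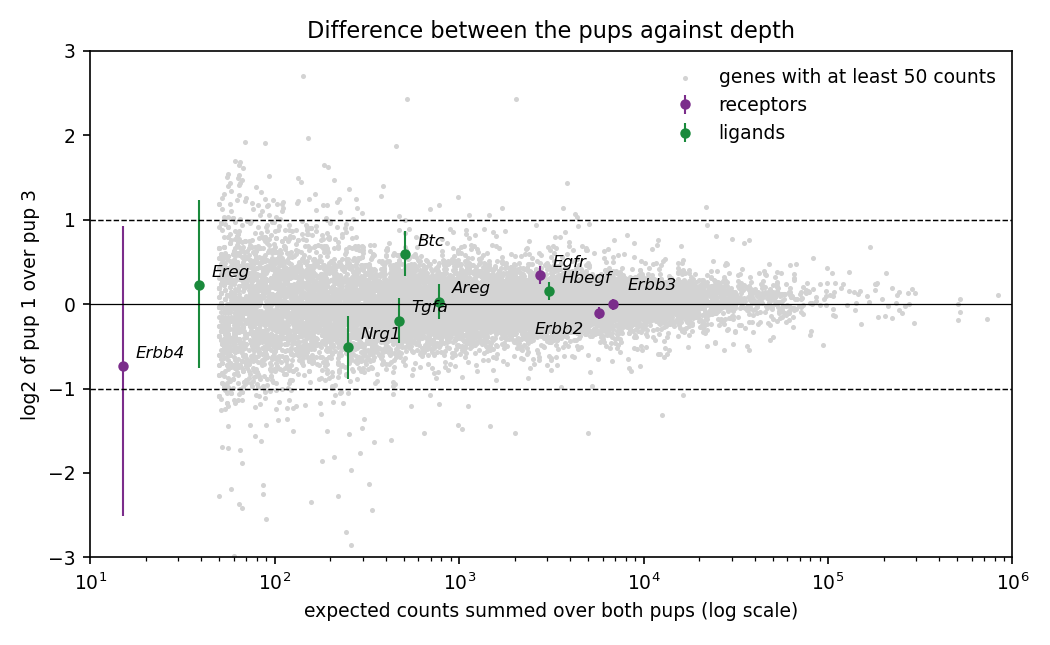
Log2 ratio of pup 1 to pup 3 against expected counts summed over both pups on a log axis, with genes of at least 50 counts in grey and the 10 genes in colour with 95% counting intervals, and dashed lines at 2-fold. 29 grey genes lie beyond a log2 ratio of 3 and are not drawn. Genes with counts past the right end of the axis, Sftpc among them, are not drawn either. All 8 genes with enough counts lie between the dashed lines, and the intervals of Erbb4 and Ereg cross a dashed line.

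Markers that moved with the pups are given beside these ratios. All 7 milk-protein genes were called higher in pup 3, and Krt15 of the basal list was 24.8 TPM in pup 1 and 52.0 TPM in pup 3. The basal list did not move as 1: Krt14 was higher in pup 1 (2.04 and 1.56 TPM). Krt5 (0.03 and 0.10 TPM) and Trp63 (0.15 and 0.11 TPM) were below the floor. The 5 mast cell and basophil markers summed to 24.5 and 20.6 TPM, and the 3 innate lymphoid markers, which mark a known source of amphiregulin, to 3.23 and 3.11 TPM. The 4 glial markers, of a cell type known to express Erbb3, summed to 3.06 and 3.55 TPM, with 1 detected. Their part in the receptor and ligand values was not tested.

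Most of the rest of the pathway was detected too. Of 65 further pathway genes, in 6 lists, 60 passed the floor. The share of all protein-coding genes was 60.3%. None of the 61 with enough counts was called by the 2-fold rule, beside 1.4% of all genes tested. By the 1.5-fold rule 1 was called, beside 5.06%, and it was higher in pup 3: Spry4, an inhibitor of receptor tyrosine kinase signalling, at 8.97 TPM in pup 1 and 15.1 TPM in pup 3, named after its value was seen.

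Ligand release is the work of proteases and their regulators, and all 8 genes of that list were detected, with a median of 35.9 TPM. The highest were Timp3, a protease inhibitor (182.6 and 183.0 TPM), Adam10, a sheddase of EGF and betacellulin (56.9 and 66.9 TPM), and Rhbdf1, which escorts the sheddase Adam17 (48.3 and 51.8 TPM). Adam17, which releases amphiregulin, Hbegf and Tgfa precursors, had 25.7 and 29.3 TPM. All 6 receptor partners were detected, led by Cd9, a tetraspanin that binds the Hbegf precursor (846.7 and 861.4 TPM). Muc1, a membrane mucin (274.4 and 270.4 TPM), and Cd82, a tetraspanin (83.0 and 93.6 TPM), came next. Cd9 was the highest of the 65 in both pups.

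All 21 signal transduction genes were detected, with a median of 47.7 TPM. Mapk3, which encodes ERK1, led at 155.0 and 154.5 TPM, followed by Hras, a small GTPase (110.4 and 106.9 TPM), and Map2k2, a kinase that activates ERK (102.9 and 104.8 TPM). All 15 negative regulators were detected, with a median of 12.0 TPM. Nedd4, a ubiquitin ligase, led at 229.9 and 294.9 TPM, then Errfi1, which inhibits ErbB kinases (92.9 and 92.1 TPM), and Spry2 (78.3 and 88.4 TPM). Of 10 genes that respond to ERK signalling 9 were detected, with a median of 20.8 TPM. Ier3 (180.0 and 206.7 TPM), Ier2 (99.3 and 124.0 TPM) and Phlda1 (89.1 and 87.0 TPM), all early response genes, were the highest. The median log2 ratio of pup 1 to pup 3 ranged from -0.13 for negative regulators to 0.12 for the other EGF-family ligands, beside 0.01 over all genes tested. For those ligands it rests on the 2 of 5 with enough counts, Egf (-0.07) and Nrg4 (0.31).

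**Figure D5:**
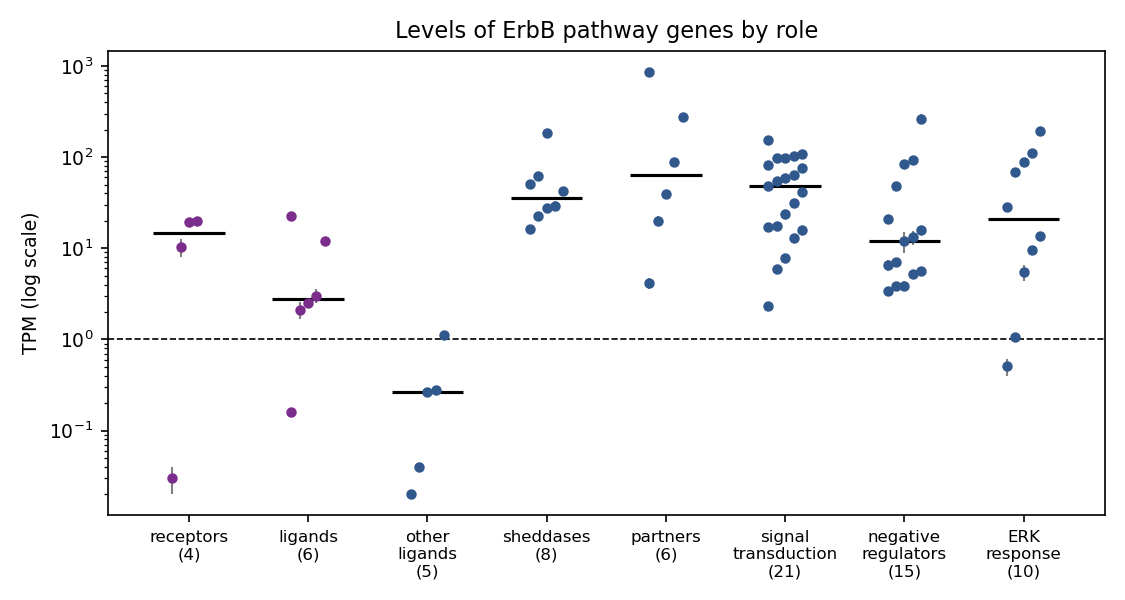
Mean TPM on a log axis of each gene in 8 lists by role, with the range over both pups as a grey line, the list median as a bar, the number of genes in brackets and the floor of 1 TPM dashed. The receptors and ligands are in purple, and the median of the ligands, 2.77 TPM, is below that of each list of sheddases, partners, signal transduction, regulators and response genes.

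Genes that overlap the receptors and ligands matter where counting may not have used strand, which is not given in the sources used here. Of 16 overlapping genes in the annotation 2 had at least 50 counts over both pups. Mien1, a protein-coding gene on the opposite strand, shares 9 bp with the end of Erbb2 and had 1585 and 1511 counts. Gm26578, a long noncoding RNA on the opposite strand within Nrg1, had 42 and 48 counts, against 109 and 140 for Nrg1. The antisense gene Egfros, inside Egfr, had 23 and 21 counts.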

How the data were processed

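The authors deposited 1 gene table and 1 transcript table per library on assembly mm10 with annotation M4, per the deposited text files. The aligner, the counter and the use of strand were not given in the sources used here. Per the file headers the deposited tables hold expected counts, TPM, isoform percent (the percent of a gene's TPM held by a transcript) and credibility bounds of TPM, a signal that is never negative and whose level is not stated. Genes were matched to GENCODE M21 on the same assembly by identifier without version. All 10 members and all listed pathway genes matched, Nrdc through a RefSeq synonym.

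TMM scaling (edgeR 4.0.16 in R 4.3.3) was computed on rounded expected counts, with a prior count of 0.5 in log2 ratios and calls, and none in folds with intervals. DESeq2 1.42.0 gave size factors only, as an alternative. The size rule was tested on simulated counts with Poisson error only and for higher values only. That test cannot speak for spread between animals. Other alternatives were posterior mean values, other scalings, floors and count minimums. All 10 members, the 5 other ligands, the 3 highest genes of each other list and transcripts at 10% or more were named by rule. Adam17, Spry4, Egfros, Krt15 and the other basal markers fall outside it and were named after their values were seen. The members and lists were chosen with earlier results of these data known. No sequence of Hbegf is shown. Nothing states that the libraries came from separate extractions, so the spread may be partly technical.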

Additional observations from a re-analysis of the deposited data

How the results depend on the processing

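Counted per kb of the longest listed transcript, the summed level of the 10 genes was 111.3 in place of 91.7 TPM, and Egfr was 6.06 in place of 10.3. Posterior mean TPM put Erbb4 at 0.335 in place of 0.030 TPM, above Ereg, with most of it on Erbb4-204, a model with 0 counts. A floor of 5 TPM left 5 of 10 genes detected. The log2 ratio of receptors to ligands was 0.75 as a difference of mean log2(TPM + 1), 0.25 by posterior mean TPM and 0.60 without Erbb2 and Hbegf, the highest of each class. The ranges of Areg and Egfr overlapped in TPM but not per kb of the longest transcript. No gene of the 10 was called by the 2-fold rule under any of the 6 other scalings and priors. Btc left the 1.5-fold rule with scaling by total counts (log2 ratio 0.55) and by TPM + 1 (0.38). Erbb2 (0.04) and Erbb3 (0.14) turned higher in pup 1 with spike-in scaling, which moved the median of all genes tested to 0.15. That scaling rests on only 317 and 316 spike-in counts. Areg turned higher in pup 3 with total counts (-0.01) and TPM + 1 (-0.05), and Erbb3 turned higher in pup 1 with DESeq2 size factors (0.0034). Over all genes, 221 were called, 85 by TPM + 1, 590 with at least 10 counts, 70 with at least 200 counts and 701 with no minimum. Leaving out 1 pup gave 91.1 and 92.4 TPM for the sum, 0.22 and 0.24 for the log2 ratio, and 8 detected genes each time. Of the 4 genes with several transcripts, 3 had a leading transcript with over 50% in both pups. Without pup 1 there were 4, and without pup 3 there were 3. No paired analysis was possible because there is 1 group. Depth limits Erbb4, Ereg, Epgn and Nrg3, which rest on few counts.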
